A study of Mus musculus with 8 samples.

Results

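The genes described here are 10 RNA-binding regulators of neuronal splicing and mRNA stability, of 22609 gene symbols counted: Ptbp1 and Ptbp2, Nova1 and Nova2, Elavl2, Elavl3 and Elavl4, Srrm4, Mbnl1 and Mbnl2. They were chosen by name, around Ptbp2, which the study lists as male-selective in these same libraries and in purified trigeminal ganglion neurons. The study's criteria included a fold change above 2 and an unadjusted p-value under 0.05 (DESeq). The sex difference of Ptbp2 is therefore given here as a description with no test. RNA was sequenced from mouse dorsal root ganglion (DRG) neurons traced back from hindpaw skin and thigh muscle, in 4 female and 4 male libraries. All mice were naïve C57BL/6J animals 8 to 12 weeks old, the females were in estrous phase, and both sexes had received the tracer WGA-488 (a fluorescent lectin carried back along axons) in both hindpaws and thighs. After 2 days the lumbar ganglia L3 to L5 were dissociated and the labelled cells were sorted by flow cytometry, so that skin and muscle afferents are mixed in each library. Oligo-dT primed SMART-seq2 cDNA was read as single reads of 50 bases. Each library was made from 6 ganglia of both sides, and injections were made in 4 mice of each sex, which makes 1 mouse per library, although the labels do not say so. P-values measure the spread between these libraries.

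These proteins decide which exons a neuron keeps. Ptbp1 is a splicing repressor of non-neuronal and progenitor cells, and it makes the transcript of its neuronal paralogue Ptbp2 skip an exon, which leads to decay of that transcript, so that Ptbp2 protein appears when Ptbp1 is withdrawn during neuronal differentiation. Nova proteins bind YCAY-containing RNA in neurons, the neuronal Elavl (Hu) proteins bind U-rich and AU-rich RNA and affect its splicing and stability, Srrm4 drives the inclusion of neuronal microexons, and the muscleblind proteins Mbnl1 and Mbnl2 shift splicing toward adult forms. The deposited values are reads per gene, which do not show whether an exon was included.

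The regulated exon of Ptbp2 and the intron before it are shown because they tie the first pair of genes together. Ptbp2 lies on chromosome 3 at 119421660 to 119486306, minus strand (build mm9, called NCBIM37 in the GENCODE M1 annotation). The exon is the tenth of 14 in the annotated transcript, is 34 bases long and wholly coding, and lies at 119427530 to 119427563. The window chr3:119427500-119427653 is printed 5′ to 3′ on the minus strand, with the exon in capitals, 90 intron bases before it and 30 after it.
Ptbp2 exon window: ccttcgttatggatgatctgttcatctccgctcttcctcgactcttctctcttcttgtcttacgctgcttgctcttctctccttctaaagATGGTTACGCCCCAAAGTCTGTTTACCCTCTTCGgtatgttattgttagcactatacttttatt
Pyrimidines made up 76.7% of the 90 intron bases before the exon, against a median of 55.6% over 167126 windows of that length before annotated internal exons, and 0.891% of those windows had as many or more. The motif TCTT, searched on the transcript strand with overlaps counted, occurred 6 times, and 0.172% of the windows held it 6 times or more. CTCTCT occurred once, as it did at least once in 10.04% of the windows. A match of letters is not a bound site.

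Members of each family resemble each other, so stretches of coding sequence with the longest run shared by a pair, in capitals, are shown to judge whether a read could be assigned to the wrong gene.
Ptbp1 coding bases 778 to 827: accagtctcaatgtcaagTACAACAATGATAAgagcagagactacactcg
Ptbp2 coding bases 772 to 821: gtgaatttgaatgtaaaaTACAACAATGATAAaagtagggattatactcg
Elavl3 coding bases 969 to 1018: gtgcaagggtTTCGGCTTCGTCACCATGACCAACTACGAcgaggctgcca
Elavl4 coding bases 1023 to 1072: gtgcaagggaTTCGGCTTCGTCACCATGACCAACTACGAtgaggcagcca
Mbnl1 coding bases 184 to 233: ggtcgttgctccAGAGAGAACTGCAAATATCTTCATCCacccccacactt
Mbnl2 coding bases 175 to 224: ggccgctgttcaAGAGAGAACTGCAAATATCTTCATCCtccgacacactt
The longest run shared by Ptbp1 and Ptbp2 was 14 bases, with 70.1% of aligned coding bases identical. For Elavl3 and Elavl4 it was 29 bases with 78.4% identical, and for Mbnl1 and Mbnl2 26 bases with 70.9% identical. The other pairs shared runs of 14 bases (Nova1 and Nova2), 17 bases (Elavl2 and Elavl3) and 23 bases (Elavl2 and Elavl4), so no pair shared a run as long as a read of 50 bases. Of all stretches of 50 exon bases, 100% occurred once in the genome for 7 members, 99.7% for Nova2, 99.5% for Elavl3 and 88.8% for Ptbp1.

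Overlap with genes on the other strand is a second limit, because SMART-seq2 cDNA does not keep the strand. The lincRNA Gm17370 shares 29.4% of the exon bases of Nova2. Gm17134, BC005764 and E130317F20Rik share 9.20%, 5.29% and 1.79% of those of Ptbp1. Reads of these genes cannot be told apart from their partners there, and the levels of Nova2 and Ptbp1 are uncertain to that extent. Mbnl2 and Srrm4 overlap other genes by 1.88% and 0.861% of their exon bases.

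Libraries held 4800071 to 7329597 gene reads, and 3 reads, the limit that a count of 0 allows, correspond to 0.409 to 0.625 CPM (counts per 1000000 gene reads). Female replicate 4 stood apart from the other libraries, with a chi-square per degree of freedom of 30.1 to 44.9 against the other females, whereas other pairs of one sex gave 2.82 to 12.1. Across 12374 genes its deviation from the median of all libraries had a Spearman rho of -0.53 with exon length and 0.35 with exon GC content, which are correlations across genes within one library. With GC content rho was -0.05, 0.03 and 0.26 in female replicates 1 to 3 and -0.18 to -0.12 in the males. Every male thus lay below every female in the GC trend, with or without female replicate 4. With exon length rho was 0.22, 0.19 and 0.02 in female replicates 1 to 3 and 0.01 to 0.06 in the males. Members are given with and without female replicate 4 where it moved their value. The labels name no batch. All 14 pan-neuronal markers found in the files were detected, with a summed level of 24863 to 35661 CPM in females and 24486 to 28126 CPM in males, so the labelled cell type was present. Markers of other cells of the ganglion were also detected: 15 of 15 for satellite glia and Schwann cells, 10 of 10 for fibroblasts, 10 of 10 for macrophages and 6 of 6 for endothelium, with none at 0 in all libraries. The summed glial level was 11762 to 15185 CPM in females and 5593 to 11338 CPM in males, and the summed fibroblast level 560 to 839 CPM and 226 to 523 CPM, both lowest in male replicate 1. Macrophage markers summed to 9.49 to 30.4 CPM in females and 4.23 to 11.9 CPM in males, and endothelial markers to 3.33 to 17.01 CPM and 3.41 to 7.40 CPM. Female replicate 4 had the highest neuronal, glial, fibroblast and endothelial sums of all libraries. The other females were at 24863 to 29968, 11762 to 11923, 560 to 632 and 3.33 to 6.59 CPM in that order. At an unadjusted p-value under 0.05 by edgeR, females were higher for 2 of 14 tested pan-neuronal, 5 of 14 glial, 5 of 6 fibroblast, 3 of 4 macrophage and 0 of 1 endothelial genes, against 4.44% of all tested genes. In sorted pools, fewer cells of a type and less RNA per cell cannot be told apart.

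Levels of different genes were compared as RPKM (CPM per kilobase of exons). Mbnl2 (chromosome 14, 120674891 to 120830919, plus strand) had the highest level of the 10, with 136.4 ± 14.9 RPKM (SD, n = 8), above 96.4% of tested genes. Elavl4, also called HuD (chromosome 4, 109876327 to 110024514, minus strand), followed with 98.6 ± 9.17 RPKM (SD, n = 8). Mbnl1 (chromosome 3, 60277032 to 60433670, plus strand) was at 55.3 ± 15.4 RPKM (SD, n = 8). Abundant regulators thus came from the muscleblind and Elavl families. Elavl2, also called HuB (chromosome 4, 90917454 to 91066675, minus strand), was at 48.6 ± 13.4 RPKM (SD, n = 8). Ptbp2 had 25.3 ± 7.53 RPKM (SD, n = 8), above 79.5% of tested genes. Elavl3, also called HuC (chromosome 9, 21819449 to 21856467, minus strand), had 18.5 ± 3.44 RPKM (SD, n = 8).

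The other members were low on the same scale. Ptbp1 (chromosome 10, 79317172 to 79327516, plus strand) had 2.26 ± 0.567 RPKM (SD, n = 8), above 25.2% of tested genes. Srrm4 (chromosome 5, 116889281 to 117041826, minus strand) was at 0.940 ± 0.200 RPKM (SD, n = 8), from 34 to 63 reads per library. Nova2 (chromosome 7, 19510698 to 19551031, plus strand) was at 0.368 ± 0.161 RPKM (SD, n = 8), from 9 to 32 reads, and Nova1 (chromosome 12, 47795504 to 47919762, minus strand) at 0.160 ± 0.0966 RPKM (SD, n = 8), from 1 to 15 reads. The order of neighbours in this ranking was the same in 8 of 8 libraries except for Ptbp2 above Elavl3, which held in 7, and Nova2 above Nova1, which held in 6. The step from Elavl3 to Ptbp1 was the largest, at 8.18-fold.

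**Figure D1:**
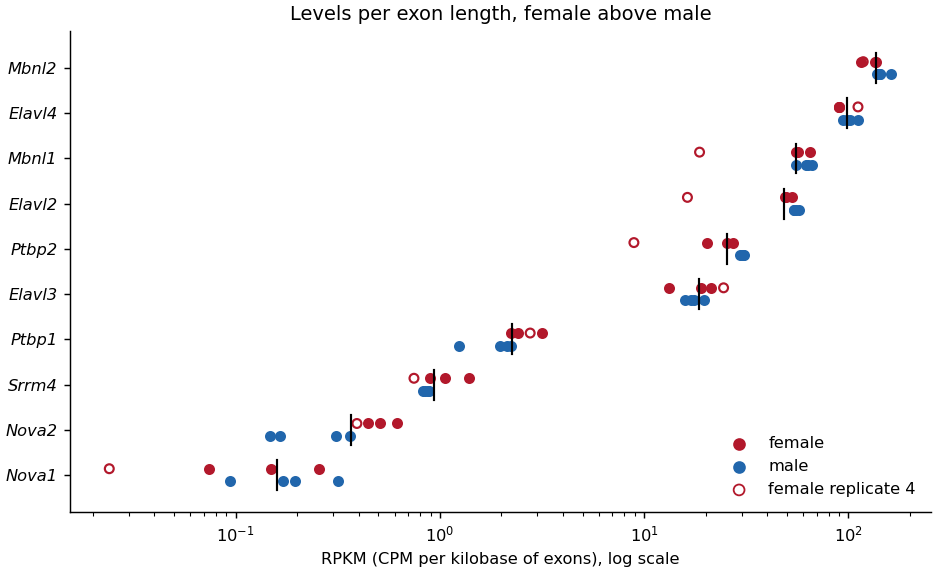
Level of the 10 genes in RPKM (CPM per kilobase of exons) on a log axis, with 1 point per library, females above males in each row, an open circle for female replicate 4 and a vertical line at the mean of 8 libraries. The genes spanned from 0.160 RPKM for Nova1 to 136.4 RPKM for Mbnl2, and female replicate 4 lay below the other libraries for Mbnl1, Elavl2 and Ptbp2.

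Ptbp2 made up 90.4% ± 6.33 of the summed RPKM of Ptbp1 and Ptbp2 (SD, n = 8). Its share was 93.2% to 96.1% in males, 86.5% to 92.4% in female replicates 1 to 3 and 76.3% in female replicate 4. The pair was thus dominated by the neuronal paralogue in every library. Elavl4 made up 59.6% ± 5.68 of the neuronal Elavl sum (SD, n = 8), Elavl2 29.2% ± 7.57 and Elavl3 11.3% ± 2.47. Elavl2 stood apart in female replicate 4, with 10.7% of the sum against 29.6% to 33.7% elsewhere. Mbnl2 made up 71.7% ± 6.39 of the muscleblind sum (SD, n = 8), with 86.4% in female replicate 4. Nova2 made up 63.4% to 94.2% of the Nova sum in females and 31.8% to 76.7% in males, where Nova1 was the higher of the pair in replicates 2 and 4. These Nova shares rest on few reads.

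Ptbp2 was at 91.3, 85.6, 68.1 and 29.98 CPM in female replicates 1 to 4, from 664, 493, 327 and 178 reads. In male replicates 1 to 4 it was at 102.5, 101.7, 99.1 and 104.0 CPM, from 751, 685, 600 and 703 reads. The males lay within a narrow band, the females were spread, and every female library was below every male library. The mean was 68.7 ± 27.6 CPM in females and 101.8 ± 2.05 CPM in males (SD, n = 4 each), a coefficient of variation of 40.2% against 2.01%. The log2 fold change (FC) estimated by edgeR, female over male, was -0.58 ± 0.27 (SE), which is 1.498-fold lower in females. This estimate is under the study's fold-change limit. Without female replicate 4 the female mean was 81.7 ± 12.1 CPM (SD, n = 3), the log2 FC was -0.33 ± 0.09 (SE), or 1.26-fold lower, and the ranges still did not overlap. With the glial score (mean log2 level of glial markers) in the model it was -0.42 ± 0.40 (SE). Summed glial levels did not overlap between the sexes, so fits with this score cannot separate glial level from sex. The size of the difference therefore rested in part on female replicate 4.

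Ptbp1, the non-neuronal paralogue, was at 10.6, 11.5, 15 and 13.1 CPM in female replicates 1 to 4. The male replicates 1 to 4 had 5.87, 10.5, 10.1 and 9.32 CPM. Every female library was above every male library, though female replicate 1 and male replicate 2 were nearly equal, with 77 and 71 reads. The log2 FC was 0.47 ± 0.22 (SE) with an edgeR p-value of 0.0538, or 0.699 after Benjamini-Hochberg adjustment over all 12518 tested genes. Ptbp1 was lowest in male replicate 1, where the summed glial level was also lowest. With the glial score in the model, which cannot be separated from sex here, its log2 FC was -0.07 ± 0.24 (SE). The part of glial RNA in the level of Ptbp1 was not tested further.

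The ratio of Ptbp1 to Ptbp2 within a library does not depend on depth or scaling, apart from the constant added to the CPM. As log2 of CPM + 0.1 it was -3.10, -2.89, -2.18 and -1.18 in female replicates 1 to 4. In male replicates 1 to 4 it was -4.10, -3.26, -3.29 and -3.47. Every female library had a higher ratio than every male library, and Ptbp2 exceeded Ptbp1 in all 8. The separation of the ratios follows from that of each gene, given above, and adds nothing to it. The means were -2.34 ± 0.86 in females and -3.53 ± 0.39 in males (SD, n = 4 each), a difference of 1.19, or 0.81 without female replicate 4. The difference was 1.14 with 1 in place of 0.1 added, and 1.02 with per-library trends of exon length and GC content removed. Because Ptbp2 led to the choice of genes, no test of this ratio was made.

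**Figure D2:**
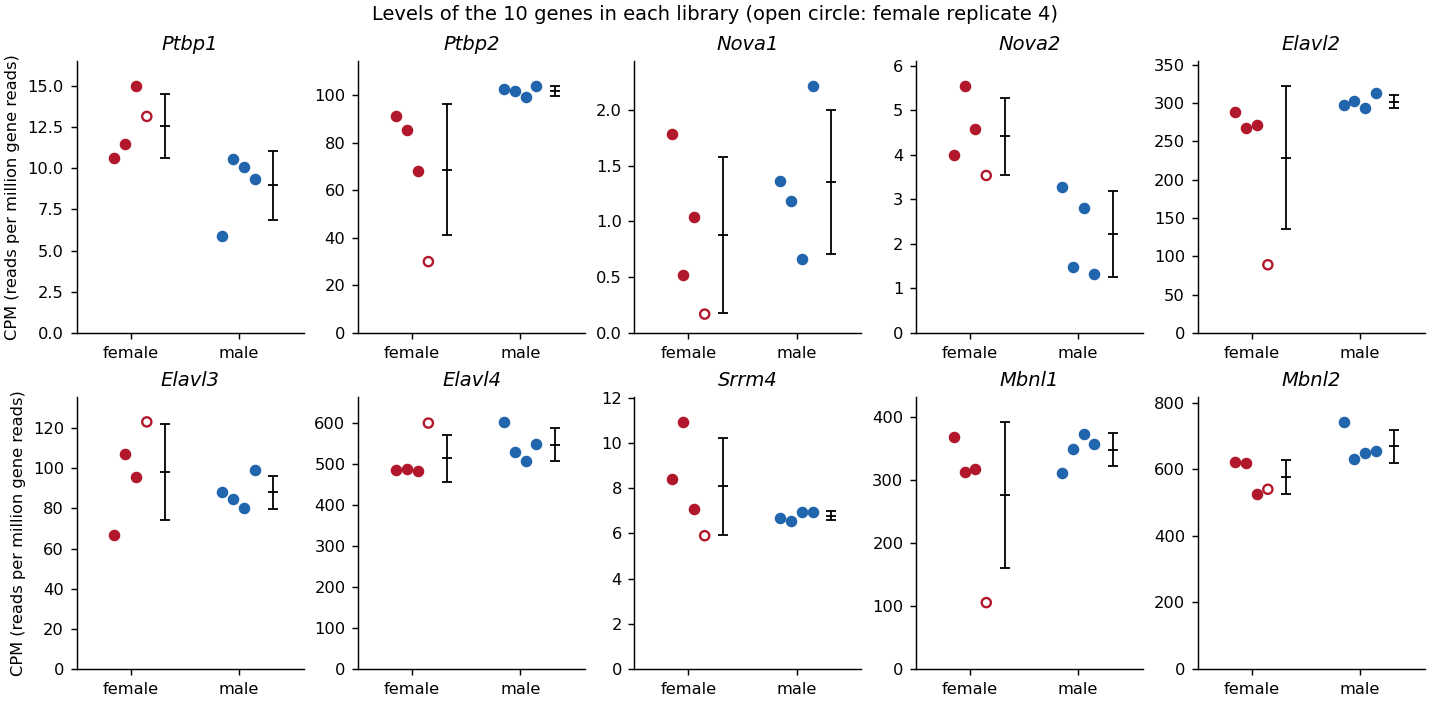
CPM of the 10 genes in each library, with 1 panel per gene, 1 point per library, an open circle for female replicate 4 and a bar for the mean ± SD of each sex. Ptbp2 lay between 99.1 and 104.0 CPM in the 4 males and between 29.98 and 91.3 CPM in the 4 females, and Elavl2 and Mbnl1 showed the same low point in female replicate 4.

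Nova2 was at 3.99, 5.55, 4.58 and 3.54 CPM in female replicates 1 to 4, from 29, 32, 22 and 21 reads. In male replicates 1 to 4 it was at 3.27, 1.49, 2.81 and 1.33 CPM, from 24, 10, 17 and 9 reads. All female values were above all male values, with small read numbers on both sides. Nova2 had the largest estimated difference of the tested members, a log2 FC of 0.96 ± 0.34 (SE) with an edgeR p-value of 0.0162 and an adjusted p-value of 0.637. Without female replicate 4 it was 1.05 ± 0.36 (SE). Nova1 had 13, 3, 5 and 1 reads in female replicates 1 to 4 and 10, 8, 4 and 15 in male replicates 1 to 4. The sexes overlapped, 1 female library was under the limit of 3 reads, and Nova1 did not pass the expression filter, so it was not tested.

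Elavl2, an RNA-binding protein of differentiating and mature neurons, was at 288, 268, 271 and 88.9 CPM in female replicates 1 to 4. In male replicates 1 to 4 it was at 297, 303, 294 and 314 CPM. Females 1 to 3 lay just under the males, and female replicate 4 was at 0.323 times their mean. The log2 FC was -0.42 ± 0.29 (SE) with an adjusted p-value of 0.786 by edgeR. Without female replicate 4 it was -0.15 ± 0.06 (SE), with an unadjusted p-value of 0.0337 and an adjusted p-value of 0.396.

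Elavl4 was at 487.1, 487.3, 482.5 and 600.5 CPM in female replicates 1 to 4. The male replicates 1 to 4 had 603.4, 529.8, 508.4 and 548.6 CPM. Here female replicate 4 was high, while the other females agreed closely and lay below all males. The log2 FC was -0.11 ± 0.11 (SE) with an adjusted p-value of 0.825 by edgeR, and without female replicate 4 it was -0.19 ± 0.07 (SE) with an adjusted p-value of 0.379. Without male replicate 1 it was -0.05. Its sign turned with the glial score in the model (0.01 ± 0.16, SE) and with exon length and GC trends removed (0.17 ± 0.20, SE). Elavl3 was at 66.8, 106.9, 95.8 and 123 CPM in female replicates 1 to 4 and at 88.3, 84.8, 80.1 and 99.2 CPM in male replicates 1 to 4. The sexes overlapped, with a log2 FC of 0.14 ± 0.17 (SE) and an adjusted p-value of 0.863 by edgeR. It was 0.01 without female replicate 4, 0.09 without female replicate 2 and 0.29 without female replicate 1.

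Mbnl2 was at 621.5, 618.0, 526.2 and 539.7 CPM in female replicates 1 to 4. In male replicates 1 to 4 it was at 742.2, 631.4, 648.8 and 653.9 CPM. All males were above all females, and the highest was male replicate 1, which had the lowest glial sum. The log2 FC was -0.24 ± 0.11 (SE) with an edgeR p-value of 0.0482 and an adjusted p-value of 0.698. It was -0.06 ± 0.14 (SE) with the glial score in the model. After per-library trends with exon length and GC content were removed it was -0.02 ± 0.11 (SE). Mbnl1 was at 368, 313, 318 and 105 CPM in female replicates 1 to 4 and at 312, 350, 374 and 358 CPM in male replicates 1 to 4. Apart from female replicate 4 the sexes covered the same range, and the log2 FC moved from -0.35 ± 0.30 (SE) to -0.08 ± 0.08 (SE) without that library.

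Srrm4 was at 8.39, 10.9, 7.08 and 5.90 CPM in female replicates 1 to 4. The male replicates 1 to 4 had 6.69, 6.54, 6.94 and 6.95 CPM. The males were close together and the females lay on both sides of them. The log2 FC was 0.24 ± 0.22 (SE) with an adjusted p-value of 0.815 by edgeR, and it was 0.05 without female replicate 2 and 0.36 without female replicate 4.

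**Figure D3:**
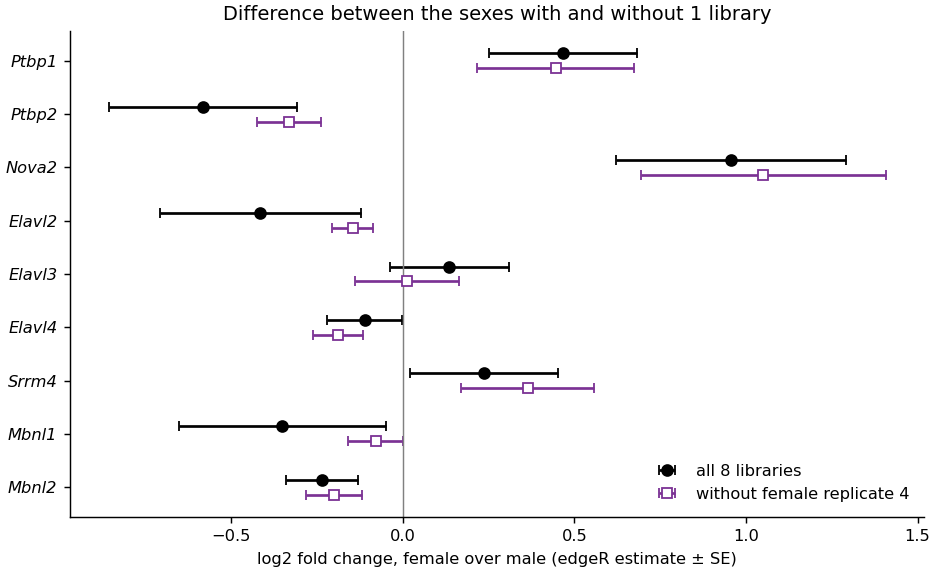
Log2 fold change, female over male, estimated by edgeR for the 9 tested genes, with bars of ± 1 SE, from all 8 libraries (black circles) and without female replicate 4 (open squares). Ptbp2 moved from -0.58 to -0.33 and Mbnl1 from -0.35 to -0.08, whereas Nova2 moved from 0.96 to 1.05.

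Of the 8 tested members other than Ptbp2, 0 passed an adjusted p-value of 0.05 with edgeR, DESeq2 or limma-voom, where 0.0879%, 0.383% and 0.0799% of all tested genes passed. At an unadjusted p-value under 0.05 edgeR gave 2 members, against 7.11% of all tested genes: Nova2, higher in females (4.44% in that direction), and Mbnl2, higher in males (2.67%). DESeq2 and limma-voom also gave 2 each, where 7.42% and 7.15% of tested genes passed. Female and male CPM ranges were separate for 4 of the 8, higher in females for Ptbp1 and Nova2 and higher in males for Elavl2 and Mbnl2, where 5.52% of tested genes did not overlap (3% with females higher and 2.52% with males higher). Without female replicate 4 the ranges of 6 did not overlap, against 11.8% of tested genes, with Elavl4 higher in males and Srrm4 higher in females added. For Srrm4 the nearest values were 7.08 CPM (34 reads) in female replicate 3 and 6.95 CPM (47 reads) in male replicate 4. For Ptbp1 they were 10.59 CPM in female replicate 1 and 10.55 CPM in male replicate 2, so both separations rest on very small gaps. The median log2 FC of the 8 was 0.01, with 4 estimates above and 4 below 0, against 0.00 over all tested genes. Without female replicate 4 there were 4 at an unadjusted p-value under 0.05 (Nova2, Elavl2, Elavl4 and Mbnl2), where 11.4% of tested genes passed, and 0 after adjustment.

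Female replicate 4 was the lowest of the 8 libraries for Ptbp2, and for 3 of the 8 other tested members, Elavl2, Srrm4 and Mbnl1, against 31.5% of tested genes. It was under 0.5 times the mean of the other females for 2 of the 8, at 0.323 times for Elavl2 and 0.317 times for Mbnl1, against 15.2% of tested genes, and it was at 0.367 times for Ptbp2. Exon GC content was 41.5%, 39.4% and 40.6% for these genes. The same measure and ratio were 40.4% and 1.24 times for Elavl4, 40.3% and 0.917 times for Mbnl2, 55.1% and 1.06 times for Ptbp1, and 54.2% and 1.37 times for Elavl3. They were 52.2% and 0.670 times for Srrm4, and 56.6% and 0.751 times for Nova2. Exon lengths were 5457, 5644 and 3364 bases for Elavl2, Mbnl1 and Ptbp2, and 4564 to 9014 bases for the other tested members. With per-library trends of exon length and GC content removed, the log2 FC was -0.46 for Ptbp2, -0.28 for Elavl2 and -0.18 for Mbnl1. Beyond these fits, the part of the trends in the levels of this library was not tested.

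The ratios of paralogues were compared between the sexes for 4 pairs, by exact permutation of the sex labels (70 labelings, two-sided), where 0.0286 is the smallest p-value possible, or 0.114 after adjustment for 1 separate ratio alone. The log2 ratio of Nova2 to Nova1 was 2.52 ± 1.18 in females and 0.69 ± 1.14 in males (SD, n = 4 each), with an exact p-value of 0.0857 and 0.343 after adjustment over the 4 pairs. This ratio rests on few reads, and its difference between the sexes went from 1.84 to 1.15 with 1 in place of 0.1 added to the CPM. Elavl3 to Elavl4 was -2.42 ± 0.30 in females and -2.64 ± 0.13 in males (SD, n = 4 each), with an adjusted exact p-value of 0.514, and the difference of 0.22 was 0.37 without female replicate 1 and 0.14 without female replicate 2. Elavl2 to Elavl4 was -1.30 ± 0.97 in females and -0.86 ± 0.11 in males (SD, n = 4 each), with an adjusted exact p-value of 0.771, and the difference of -0.45 became 0.04 without female replicate 4. Mbnl2 to Mbnl1 was 1.204 ± 0.78 in females and 0.94 ± 0.21 in males (SD, n = 4 each), with an adjusted exact p-value of 0.771, and the difference of 0.26 became -0.12 without that library.

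**Figure D4:**
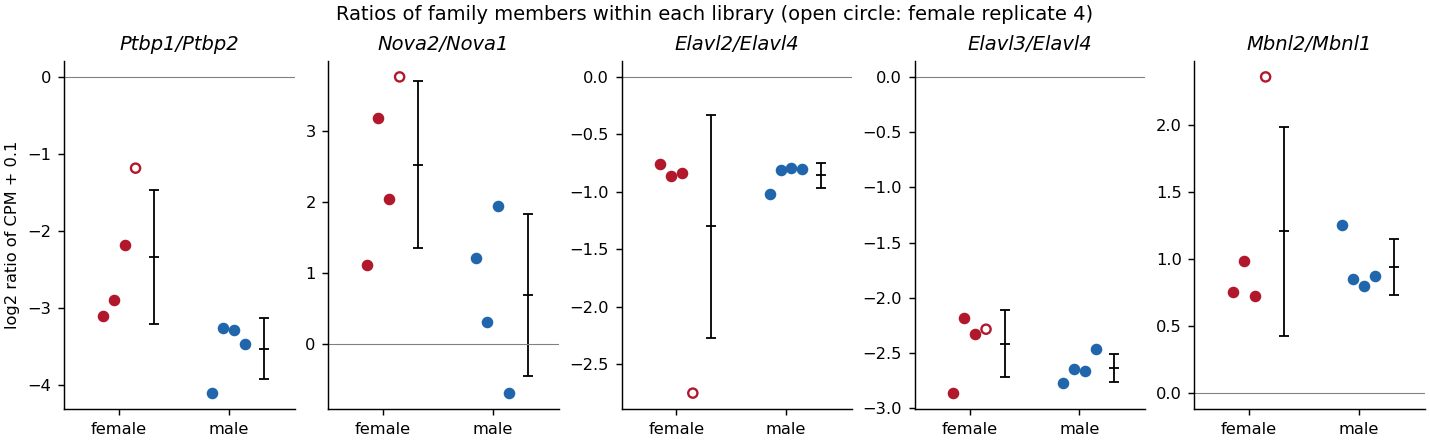
Log2 ratio of CPM + 0.1 for 5 pairs of paralogues in each library, with 1 point per library, an open circle for female replicate 4 and a bar for the mean ± SD of each sex. For Ptbp1 over Ptbp2 the females lay between -3.10 and -1.18 and the males between -4.10 and -3.26, while for Elavl2 over Elavl4 and Mbnl2 over Mbnl1 only female replicate 4 and, to a smaller extent, male replicate 1 left the common range.

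Other paralogues of the members were counted as well. Ptbp3, which the files list under the older symbol Rod1, was at 67.4, 47.0, 25.6 and 16 CPM in female replicates 1 to 4 and at 60.3, 41.1, 45.6 and 45.0 CPM in male replicates 1 to 4, with an adjusted p-value of 0.844 by edgeR. Elavl1, also called HuR, was at 63.4 ± 21.4 CPM in females and 76.8 ± 6.60 CPM in males (SD, n = 4 each), with an adjusted p-value of 0.805 by edgeR. Srrm3, which also promotes microexons, was at 12.6 ± 3.19 CPM in females and 9.75 ± 1.597 CPM in males (SD, n = 4 each), with an adjusted p-value of 0.768 by edgeR. In female replicate 4, Rod1 and Elavl1 were at 0.343 and 0.475 times the mean of the other females and Srrm3 at 1.55 times. The log2 FC went from -0.31 to -0.05 for Rod1, from -0.29 to -0.09 for Elavl1 and from 0.34 to 0.16 for Srrm3 without that library. Mbnl3 had at most 1 read in any library, at or under the limit of 3 reads.

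Among 21 other neuronal splicing and RNA-binding regulators, 19 were tested and 0 passed the adjusted or the unadjusted threshold in edgeR, against 0.0879% and 7.11% of all tested genes. Celf4, a neuronal RNA-binding protein of the CELF family, was at 165 ± 28.0 CPM in females and 205 ± 32.1 CPM in males (SD, n = 4 each), with a log2 FC of -0.33 ± 0.15 (SE) and an adjusted p-value of 0.699 by edgeR.

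General splicing factors gave 0 calls in edgeR after adjustment. Of 13 tested SR proteins, which promote exon inclusion, 1 was higher in females and 2 were higher in males at an unadjusted p-value under 0.05, against 4.44% and 2.67% of all tested genes, and their median log2 FC was -0.16, against 0.00 over all tested genes, with 11 of 13 estimates negative. Srsf7 was at 97.03 ± 9.54 CPM in females and 119 ± 7.64 CPM in males (SD, n = 4 each), a log2 FC of -0.31 ± 0.11 (SE) with an adjusted p-value of 0.637 by edgeR. Srsf2 went the other way, with 65.3 ± 20.6 CPM in females and 44.4 ± 5.14 CPM in males (SD, n = 4 each) and an adjusted p-value of 0.667 by edgeR. Female and male levels were separate, with males higher, for 4 SR proteins (2.52% of tested genes). Of 20 tested hnRNP proteins, which often repress exons, 3 were higher in females and 0 in males at an unadjusted p-value under 0.05, against the same 4.44% and 2.67%, with a median log2 FC of 0.03. Hnrnpl was at 24.8 ± 3.88 CPM in females and 18.1 ± 2.67 CPM in males (SD, n = 4 each), with an adjusted p-value of 0.657 by edgeR, and Hnrnpd, with a log2 FC of -0.39 ± 0.19 (SE), had 0.711.

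Transcripts that the members are known to regulate by splicing or stability were the last list. Of 16, 14 were tested and 0 passed the adjusted threshold in edgeR. At an unadjusted p-value under 0.05 there was 1, higher in females, against 4.44% of all tested genes in that direction and 7.11% in either, and the median log2 FC was 0.16, against 0.00 over all tested genes. Unc13b, which encodes a synaptic vesicle priming protein, was at 15.3 ± 4.77 CPM in females and 9.72 ± 1.89 CPM in males (SD, n = 4 each), with an adjusted p-value of 0.651 by edgeR. Gap43, a growth cone protein whose mRNA is stabilised by Elavl4, was at 306 ± 44.0 CPM in females and 340 ± 37.7 CPM in males (SD, n = 4 each), with an adjusted p-value of 0.798 by edgeR, and its log2 FC went from -0.17 to -0.27 without female replicate 4. A change in exon use need not alter the reads of a gene.

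To see which genes varied like Ptbp2, log2(CPM + 1) was compared over the 8 libraries for 9074 genes with a mean of at least 10 CPM. The 5 with the highest Pearson r were Vps37a (0.997), Ifit2 (0.995), Gpld1 (0.994), Actr2 (0.994) and Abce1 (0.993). Each of the 5 had its lowest level in female replicate 4, and without it r was 0.969, 0.957, 0.972, 0.974 and 0.939. The points share their libraries, and female replicate 4 sets most of the range. For Mbnl2, the member with the highest RPKM, the 5 genes were Syt4 (0.986), Snx10 (0.973), Pgm2l1 (0.965), Sprn (0.961) and Armc8 (0.958), and without female replicate 4 r was 0.983, 0.974, 0.952, 0.949 and 0.969. Among the members with such a mean, r with Ptbp2 was 0.970 for Elavl2, 0.954 for Mbnl1, 0.730 for Mbnl2, -0.34 for Elavl4, -0.561 for Ptbp1 and -0.661 for Elavl3. Without female replicate 4 these values were 0.841, 0.448, 0.867, 0.682, -0.761 and -0.235 in the same order. With each sex centred on its own mean they were 0.975, 0.968, 0.528, -0.775, -0.251 and -0.661 over the 8 libraries.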

How the data were processed

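Sorted DRG neurons of 4 female and 4 male samples were analysed. Reads were demultiplexed (bcl2fastq in the submitters' processing notes, CASAVA in the study's methods). Per the labels, the authors aligned reads (TopHat2, build mm9) and counted them per gene (HTSeq), and the deposited values are raw counts. Tool versions, annotation release and strand option are not given in the sources used here. The 5 summary lines of the counting program were left out of library sizes, and gene reads were 39.4% to 42.1% of uniquely aligned reads. PCR copies were not removed by molecular identifiers, so limits of 3 reads cover counting error only.

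Symbols were matched to GENCODE M1 on NCBIM37 (21627 of 22609, 95.7%). Counts were fitted over all genes in edgeR 4.0.16 under R 4.3.3 (quasi-likelihood F test, TMM, default expression filter, sex alone, Benjamini-Hochberg adjustment, threshold 0.05). DESeq2 1.42.0, limma-voom (limma 3.58.1), other scalings and filters, a glial score, trends with exon length, a replicate block and leaving out each library were alternatives. Removal of length and GC trends together was added after seeing the data. CPM and RPKM were computed here. Tables and figures came from pandas 2.3.3 and matplotlib 3.10.9 under Python 3.11.15.

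The genes named are the 10 members, their paralogues, of each other list any called gene and the smallest unadjusted p-value in each direction, and the 5 genes most like Ptbp2 and most like Mbnl2. One gene that this rule names is not reported here. Members and lists were chosen with earlier results of these data known. Paralogue ratios used a pseudocount of 0.1.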

Additional observations from a re-analysis of the deposited data

Results flagged for a closer look

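In 30 groups of 4 libraries checked for 1 library far from the others, 6 such values were found, where chance gives about 1 in 20 groups, or 1.5 here. Genes and ratios of the same genes were both checked, so the groups are not independent and 1 event can be counted more than once. The 6 values came from 2 libraries. Female replicate 4 had 88.94 CPM of Elavl2, far below the other females, and 600.5 CPM of Elavl4, far above them. Its log2 ratio of Elavl2 to Elavl4 was -2.754, and its log2 ratio of Mbnl2 to Mbnl1 was 2.355, each outside the other females. Male replicate 1 had a log2 ratio of Elavl2 to Elavl4 of -1.022 and of Mbnl2 to Mbnl1 of 1.249, each outside the other males by a smaller distance. The low values of Ptbp2 and Mbnl1 in female replicate 4 did not reach this criterion.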

How the results depend on the processing

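Over 18 alternatives, 0 members other than Ptbp2 passed the adjusted threshold. At an unadjusted p-value under 0.05 there were 2, and 1 with no expression filter, with a stricter filter, with the glial score and with length and GC trends removed, and 1 to 4 when single libraries were left out. Over all genes, 11 passed the adjusted threshold, against 48 with DESeq2, 5 with the glial score and 7 to 84 when single libraries were left out (84 without female replicate 1, 7 without male replicate 4). At an unadjusted p-value under 0.05 there were 890, against 279 with the glial score and 587 (without male replicate 1) to 1453 (without female replicate 4). Of the listed splicing genes and targets, 0 to 1 passed when single libraries were left out: Hnrpll, chosen after its values were seen, had 7.84 CPM in female replicate 1, 35.7 to 53.4 CPM in the other females and 15.03 to 18.04 CPM in males. Its edgeR log2 fold change was 1.13 with an adjusted p-value of 0.657 over all 8 libraries, and 1.47 with 0.00544 without female replicate 1, the female library below the males.

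The log2 fold change of Ptbp2 kept its sign under 18 alternatives, between -0.74 (without female replicate 1) and -0.33 (without female replicate 4). Every female library was below every male library, so leaving out a library could not turn this sign. The kept sign is therefore a description and not a test. The sign of Ptbp1 turned with the glial score (-0.0727 ± 0.24, SE). That of Elavl4 turned with the glial score (0.0098 ± 0.16, SE) and with length and GC trends removed (0.17 ± 0.20, SE). Glial sums did not overlap between the sexes, so fits with the glial score cannot separate glial level from sex. The difference of Elavl2 to Elavl4 ranged from -0.63 to 0.0385 and that of Mbnl2 to Mbnl1 from -0.12 to 0.42 when single libraries were left out, each turning without female replicate 4, and Elavl3 to Elavl4 was -0.0091 with length and GC trends removed. Nova2 to Nova1 could not be computed with trends removed, since Nova1 did not pass the filter. The cause was not tested. Correlations of libraries with the same number were 0.0939, -0.109, 0.144 and 0.0048, so the numbers share only a label; with the replicate block 6 genes passed over all genes, and 0 members were called after adjustment, as without it. Under the block the unadjusted p-value of Mbnl2 went from 0.0482 to 0.0709 and that of Ptbp1 from 0.0538 to 0.0370, so that the count of 2 held Nova2 and Ptbp1. The same exchange occurred with library size alone and with the length trend removed. Low read numbers limit Nova1, Nova2, Srrm4 and Ptbp1.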
